A study of Mus musculus with 2 samples.

Results

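The genes described are enzymes and readers that add, remove or bind chemical marks on histones and DNA in mouse T cells. They were taken by gene symbol: every gene with a named probe whose symbol begins with Hdac, Sirt plus a digit, Kdm, Kmt, Dnmt, Brd plus a digit or Ezh, together with Tet1, Tet2 and Tet3, and without Kdm5c, Kdm5d and Kdm6a. This gave 49 genes of the 17176 named on the array, measured by 81 probes with 1 spot each. By the scanner software's own mark, 48 of the 49 stood well above background on each array and 1, Hdac11, on neither. The study compared splenic CD8+ cytotoxic T cells with splenic CD4+ helper T cells, both sorted from wild-type mice of the strain labelled C57B6. The labels give no treatment, age or sex of the animals, nor how many mice were used or which surface markers the sort relied on. Each cell type was measured on 1 one-colour Agilent array, so the difference has no replicate check and no p-value is given. Differences are log2 of the CD8+ over the CD4+ array after each was scaled to the 75th percentile of its signals, so a positive value means more in the CD8+ cells. Processed signals are printed before that scaling, and a gene with no difference has 1.13 times more signal on the CD4+ array.

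Histone acetylation opens chromatin, and histone deacetylases (Hdac genes and the NAD-dependent sirtuins) remove it. Methyl groups on histone lysines are written by methyltransferases such as the Kmt and Ezh enzymes and erased by the Kdm demethylases, and they can mark active or silent genes according to the lysine. Dnmt enzymes methylate cytosine in DNA, Tet enzymes oxidise that mark, and bromodomain proteins (Brd genes) bind acetylated lysines. In T cells these enzymes are known for keeping the Cd4 or the Cd8 locus silent in the opposite lineage and for holding effector genes ready or shut.

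Across the 48 measured enzyme genes the levels on the 2 arrays were close. None reached 2-fold in favour of the CD8+ cells, as 1.94% of the 11957 named genes measured on both arrays did, and none in favour of the CD4+ cells, as 3.83% did. At 1.5-fold, 3 enzyme genes favoured the CD8+ cells (6.25%, against 5.5% of all named genes), namely Hdac7, Kdm4b and Hdac4. Hdac10 alone favoured the CD4+ cells by that much (2.08%, against 8.54% of all named genes). The median log2 difference was 0.059 over the enzyme genes and 0.024 over all named genes. The differences of the enzyme genes ran from -0.67 to 0.96, with an interquartile range of 0.29, while that of all named genes was 0.39. In either direction 8.33% of the enzyme genes were 1.5-fold apart, against 14.0% of all named genes, but this order turned round with other processing. It was 10.4% against 8.51% with normexp, 10.4% against 9.69% with the authors' series values and 11.4% against 8.54% with brighter probes alone. Within 0.1 log2 units of no difference lay 19 enzyme genes (39.6%), against 28.7% of all named genes. The scaling matters for small values: with each array scaled to its median, the median of all genes moved by 0.14, and 5 enzyme genes passed 1.5-fold on the CD8+ side, with 0 on the CD4+ side.

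The only spread these arrays offer is technical. Between probes of 1 gene the log2 difference had an SD of 0.23 over 3972 genes, and of 0.28 over the 24 enzyme genes with more than 1 probe. Between spots of 1 probe the SD was 0.16, over 158 probes. The scanner software also gives an error for single spots, which is its own estimate and not a spread between repeats. It put an error of 0.20 on each difference (median over the 80 enzyme probes above background, up to 0.38, and 0.75 for the Hdac11 probe below it). Differences below about these sizes could not be told from probe noise, and the spread between mice is not known. Within 0.23 lay 30 of the 48 enzyme genes (62.5%), against 56.7% of all named genes, again without matching for brightness. Probes of different genes bind with different strength, so levels are set side by side only for the same probe.

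**Figure D1:**
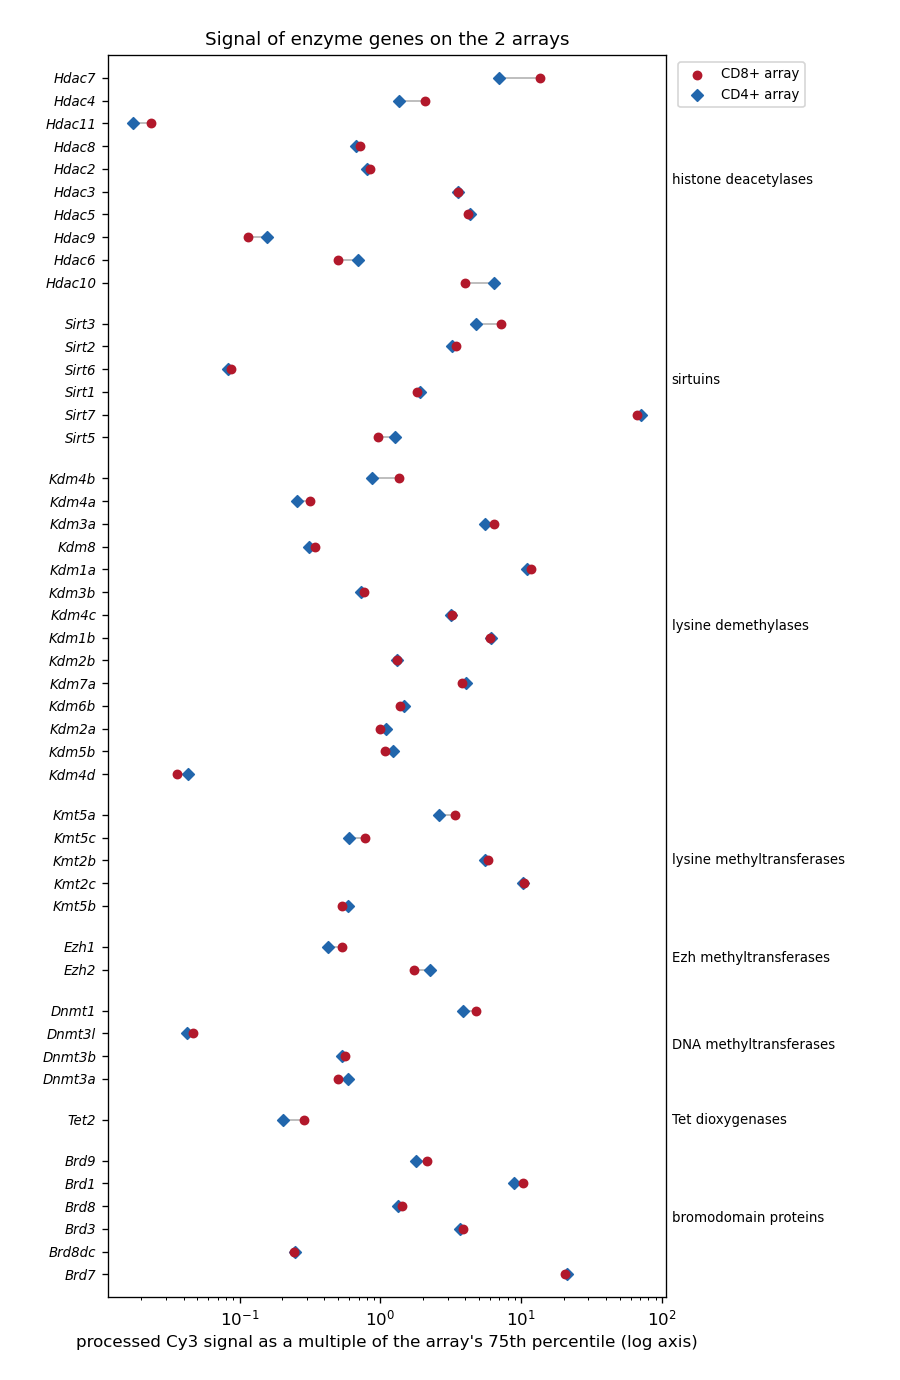
Processed Cy3 signal of 48 of the 49 enzyme genes divided by the 75th percentile of its array (log axis), by the probe used for the gene, with the CD8+ array as circles and the CD4+ array as diamonds, 1 array each. In most rows the symbols touch, the distance is widest in Hdac7, Hdac11 is below background on both arrays, and the position of 1 gene against another has no meaning because probes differ in binding.

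The lineage genes checked the labels. Cd8a had a processed signal of 49982 on the CD8+ array and 535 on the CD4+ array (log2 difference 6.72). Cd4 had 67.1 on the CD8+ array and 307 on the CD4+ array (-2.04), and Zbtb7b, the helper lineage factor, 71.2 and 1595 (-4.31). Of the marker lists for other cells, B cell genes (8 of 8 measured) had a median difference of 0.43 and signals summing to 18619 on the CD8+ and 15992 on the CD4+ array. Dendritic cell genes (5 of 7) had a median of -1.31, with sums of 1055 on the CD8+ and 2968 on the CD4+ array. Plasma cell genes (5 of 6 on both arrays) had -0.73, with sums of 1458 and 2805 in the same order, and NK cell genes (3 of 6 on both arrays) -2.14, with 368 and 895; these sums also count Tnfrsf17 and Khdc1a, above background on the CD4+ array alone. The NK median ran from -2.19 to -0.22 over the alternatives (-0.22 with brighter probes alone) and the plasma cell median from -1.18 (no filter on dim probes) to -0.59. The NK genes Klre1 and Klri2 were above background on neither array. Monocyte or macrophage genes (5 of 6) had -0.17, with sums of 51859 on the CD8+ and 28404 on the CD4+ array, of which Ly6c2, also made by T cells, gave 41704 and 13907. On the other side of 0 in that list, Lyz2 had 121 on the CD8+ and 616 on the CD4+ array (-2.17) and Adgre1 5908 and 9274 (-0.47). T cell genes (10 of 11) summed to 266383 on the CD8+ and 211672 on the CD4+ array, of which Cd8a gave 49982 and 535. All these sums are of signals before scaling, where no difference means 1.13 times more on the CD4+ array. The part of other cells in the enzyme differences was not tested. In sorted bulk cells fewer cells of a type and less RNA per cell cannot be told apart.

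Among the histone deacetylases, the class IIa enzymes Hdac7 and Hdac4 stood higher in the CD8+ cells and the class IIb enzymes Hdac6 and Hdac10 lower. Class IIa deacetylases shuttle between nucleus and cytoplasm under phosphorylation and act as signal-controlled co-repressors, and Hdac7 is the one best known from thymocytes and cytotoxic T cells. Hdac7 had a processed signal of 6125 on the CD8+ array, against 3555 on the CD4+ array, a difference of 0.96 or 1.95-fold. Its second, dimmer probe had 1177 on the CD8+ array, against 627 on the CD4+ array, a difference of 1.08 or 2.12-fold. Both Hdac7 probes thus stood far outside the spread between probes. The dimmer one was the 1 enzyme probe of 80 past 2-fold, where 5.06% of all 16970 named probes above background on both arrays were. As far apart as Hdac7 in favour of the CD8+ array were 2.12% of all named genes. With its probes averaged, or with the arrays scaled to their medians, Hdac7 passed 2-fold (1.02 by the averaged probes).

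Hdac4, a second class IIa enzyme, had 940 on the CD8+ array, against 691 on the CD4+ array (difference 0.62, 1.54-fold, 1 probe). With the percentile taken over detected probes or with loess it came below 1.5-fold (down to 0.57), which left Hdac7 and Kdm4b past that line on the CD8+ side. Hdac5 and Hdac9 lay below 0, Hdac5 only by a margin that median scaling turned round (0.10). Hdac5 had 1894 on the CD8+ array, against 2198 on the CD4+ array, which after scaling left a difference of -0.039. Hdac9, which in mice restrains regulatory T cells, had 51.7 on the CD8+ array, against 79.6 on the CD4+ array (-0.45), and 27.1 against 37.2 by its dimmer probe (-0.28). Both Hdac9 probes were dim. With normexp background correction, which adds 50 to each signal and so shrinks differences of dim probes, the difference was -0.17. The 4 class IIa genes therefore spread from -0.45 to 0.96.

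The class IIb pair leaned to the CD4+ array. Hdac10, an enzyme known for deacetylating polyamines, had 1793 on the CD8+ array, against 3233 on the CD4+ array (-0.67). Its other probe had 578 on the CD8+ array, against 903 on the CD4+ array (-0.47). Hdac6, the tubulin deacetylase of the cytoplasm, had 225 on the CD8+ array, against 353 on the CD4+ array (-0.47, 1 probe). All 3 class IIb probes were lower in the CD8+ array by more than the SD between probes, and both genes stayed below 0 in every processing alternative. As far below 0 as Hdac10 were 6.96% of all named genes, and as far as Hdac6 11.2%. With the mean over probes or with median scaling Hdac10 came below 1.5-fold (-0.57 and -0.53).

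The measured class I enzymes, of which Hdac2 and Hdac3 are catalytic subunits of large co-repressor complexes, hardly differed. Hdac3, the enzyme of the NCoR complex, had 1593 on the CD8+ array, against 1798 on the CD4+ array (difference 0.0019). Hdac2 had 376 on the CD8+ array, against 407 on the CD4+ array (0.061). Hdac8 had 323 on the CD8+ array, against 338 on the CD4+ array (0.11), and its other probe gave 0.10. Hdac1 had no named probe and is not analysed here. Hdac11, the class IV enzyme, was not well above background on either array. Over the 9 measured deacetylases the median difference was 0.0019, and from -0.050 to 0.14 over the alternatives.

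The start-site windows of Hdac7 and Hdac4, higher in the CD8+ array, and of Hdac6 and Ezh2, lower there, are printed. These genes were among the furthest apart in their direction or family and have an entry in the RefSeq promoter table. Kdm4b (0.65), further apart than Hdac4, and Hdac10 (-0.67), further apart than Hdac6, have no entry. The choice was made after their values were seen. Each window holds 250 bases before and 50 after an annotated start, on the minus strand of build GRCm38.p6, read 5′ to 3′: Hdac7 at chr15:97831446-97831745, Hdac4 at chr1:92180292-92180591, Hdac6 at chrX:7947840-7948139 and Ezh2 at chr6:47594981-47595280. Capitals mark every match, on either strand, to the GC box GGGCGG, the Ets core CCGGAA or the Runx core ACCACA.
Hdac7: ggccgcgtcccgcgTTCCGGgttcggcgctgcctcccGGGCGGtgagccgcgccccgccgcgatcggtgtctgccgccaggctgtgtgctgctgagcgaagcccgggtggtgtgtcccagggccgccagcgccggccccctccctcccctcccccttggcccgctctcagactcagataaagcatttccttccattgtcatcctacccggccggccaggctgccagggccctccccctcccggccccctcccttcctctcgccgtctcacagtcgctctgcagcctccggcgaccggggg
Hdac4: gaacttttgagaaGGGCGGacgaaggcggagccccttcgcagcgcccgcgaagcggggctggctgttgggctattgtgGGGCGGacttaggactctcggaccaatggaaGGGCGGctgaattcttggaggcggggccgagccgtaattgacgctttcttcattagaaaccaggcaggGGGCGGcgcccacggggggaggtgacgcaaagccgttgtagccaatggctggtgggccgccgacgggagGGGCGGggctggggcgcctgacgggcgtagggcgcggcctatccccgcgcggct
Hdac6: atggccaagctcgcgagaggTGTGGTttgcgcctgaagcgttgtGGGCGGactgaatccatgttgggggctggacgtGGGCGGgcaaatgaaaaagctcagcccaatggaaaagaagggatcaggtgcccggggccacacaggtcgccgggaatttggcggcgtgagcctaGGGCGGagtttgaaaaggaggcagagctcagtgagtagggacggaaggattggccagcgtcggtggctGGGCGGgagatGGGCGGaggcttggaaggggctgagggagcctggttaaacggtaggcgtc
Ezh2: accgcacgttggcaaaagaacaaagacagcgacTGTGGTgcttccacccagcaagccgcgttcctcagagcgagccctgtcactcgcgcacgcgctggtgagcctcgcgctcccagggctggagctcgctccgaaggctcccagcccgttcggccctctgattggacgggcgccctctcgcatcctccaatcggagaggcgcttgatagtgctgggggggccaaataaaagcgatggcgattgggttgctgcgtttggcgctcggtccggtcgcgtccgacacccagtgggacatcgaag

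The first window of Hdac7 held 1 GC box and 1 Ets core, and the table lists 4 start windows for this gene, with 31, 6, 35 and 5 CG dinucleotides. The Hdac4 window held 5 GC boxes and 32 CG dinucleotides. The Hdac6 window held 5 GC boxes, 1 Runx core and 20 CG dinucleotides, and that of Ezh2 held 1 Runx core, no GC box and 31 CG dinucleotides. Over the first listed window of the 39 enzyme genes with an entry, 69.2% held the GC box, 25.6% the Ets core and 17.9% the Runx core. Over all 32851 windows of the table, which include those of non-coding genes, the shares were 35.7%, 14.9% and 16.8%. The median number of CG dinucleotides was 22 in the enzyme windows and 7 in all windows. Each enzyme gene entered with its first listed window alone, while all windows include every alternative start of a gene. As the Hdac7 windows show, such starts can differ widely in CG dinucleotides. These shares and medians are therefore not like measures, and no enrichment in the enzyme genes can be read from them. The GC box stood in printed windows of genes of either direction, and the Runx core in those of Hdac6 and Ezh2.

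**Figure D2:**
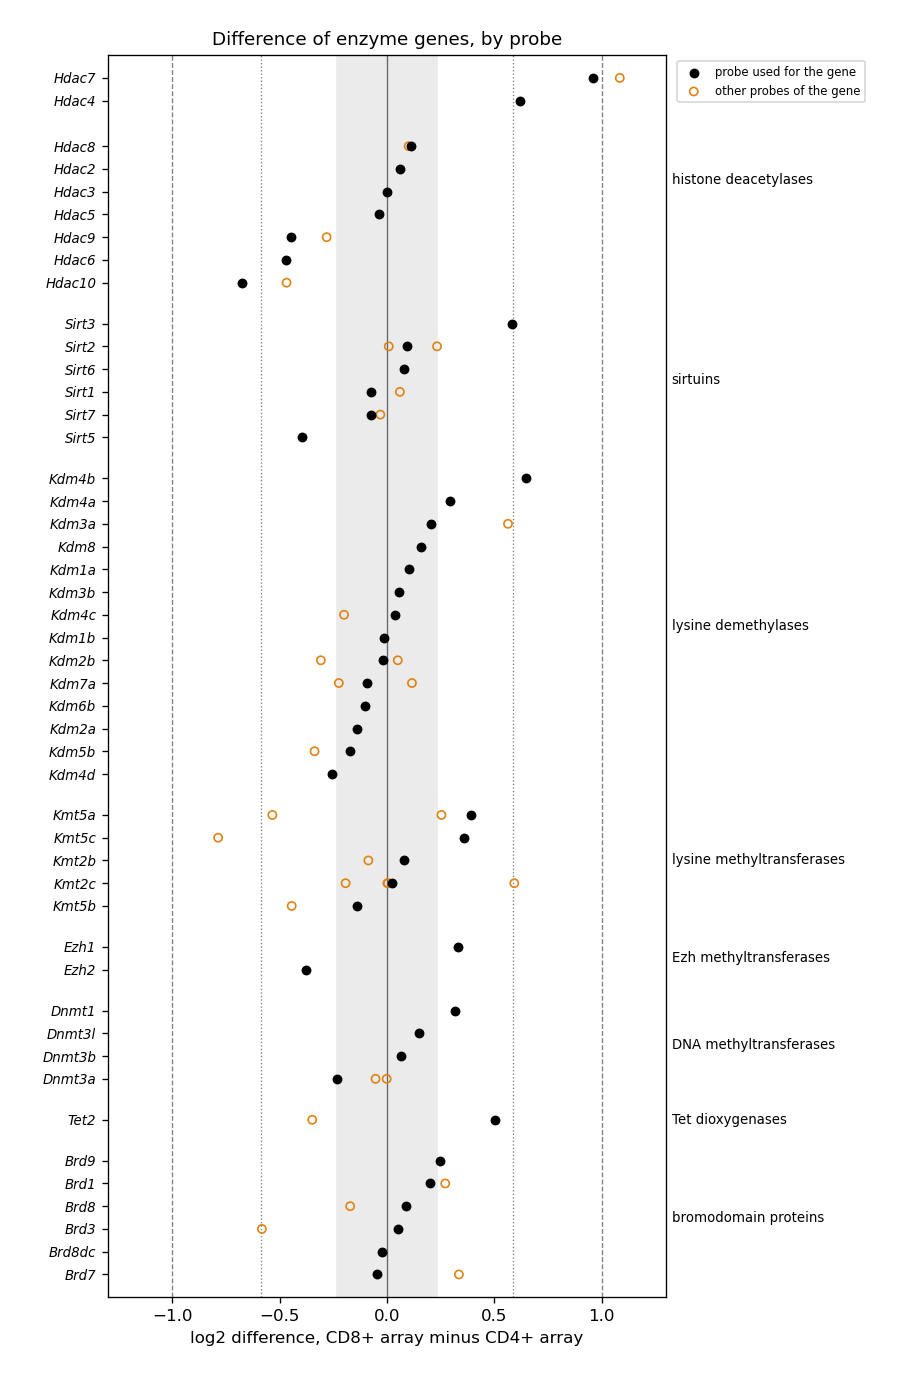
Log2 difference, CD8+ minus CD4+ array, for the probes of 47 enzyme genes above background on both arrays, the one used for the gene filled and other probes open. The grey band is 1 SD between probes of a gene (0.23), dotted lines mark 1.5-fold and dashed lines 2-fold; both Hdac7 probes lie at the right edge, both Hdac10 probes on the left, and the probes of Kmt5c and Tet2 lie on opposite sides of 0.

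Sirtuins couple deacylation to the NAD supply of the cell. The mitochondrial pair was split. Sirt3, the main mitochondrial deacetylase, had 3223 on the CD8+ array, against 2433 on the CD4+ array (0.58, just under 1.5-fold). Sirt5, the mitochondrial desuccinylase, had 431 on the CD8+ array, against 641 on the CD4+ array (-0.39). Each was measured by 1 probe, each difference was larger than the SD between probes, and each kept its side of 0 in all 11 alternatives. As far on the side of Sirt3 were 5.54% of all named genes, and as far on the side of Sirt5 13.7%.

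The nuclear and cytoplasmic sirtuins lay within the probe spread. Sirt1, a nuclear deacetylase that dampens T cell activation in mice, had 821 on the CD8+ array, against 977 on the CD4+ array (-0.074), and 763 against 827 by its other probe (0.060). Sirt2, the cytoplasmic tubulin deacetylase, differed by 0.093 (0.0082 and 0.23 by its other probes), and the chromatin enzyme Sirt6 by 0.079. Sirt7, the nucleolar sirtuin, had 30097 on the CD8+ array, against 35845 on the CD4+ array (-0.076, and -0.031 by its other probe), without saturation on either array. The median over the 6 sirtuins was 0.0023 and ran from -0.10 to 0.14 over the alternatives.

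Of the 14 lysine demethylases, 7 differences were above 0 and 7 below, and the median was 0.013 (from -0.041 to 0.16 over the alternatives). Kdm4b was the 1 member past 1.5-fold. It removes the trimethyl mark of heterochromatin from histone H3, and it had 613 on the CD8+ array, against 442 on the CD4+ array (0.65, 1.57-fold, 1 probe). Its relatives with the same substrate did not reach that. Kdm4a had 142 on the CD8+ array, against 131 on the CD4+ array (0.29), Kdm4c differed by 0.040 (-0.20 by a dim second probe), and Kdm4d, near background with 16.3 on the CD8+ array and 22.0 on the CD4+ array, by -0.26 (0.024 with the authors' series values, and above 0 with normexp too).

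Kdm6b, which erases the Polycomb methyl mark and is induced by T cell activation, had 618 on the CD8+ array, against 751 on the CD4+ array (-0.10). This difference is within the probe spread and became 0.038 with median scaling. The amine oxidases Kdm1a and Kdm1b, which erase mono- and dimethyl marks of active genes, differed by 0.10 and -0.013. The Kdm3 enzymes of dimethyl marks differed by 0.20 (Kdm3a) and 0.056 (Kdm3b), although the dimmer probe of Kdm3a gave 0.56. Kdm2a and Kdm2b, which bind unmethylated CpG islands, differed by -0.14 and -0.019. Kdm5b, which erases the promoter mark trimethylated on histone H3, had 486 on the CD8+ array, against 620 on the CD4+ array (-0.17, and -0.34 by its dimmer probe). Kdm7a differed by -0.095 and Kdm8 by 0.16. None of these 10 genes left the band of 1 SD between probes by the probe that was used.

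Among the methyltransferases, the probes of Kmt5c and of Kmt5a went to opposite sides. Kmt5c, which adds the silencing methyl marks of heterochromatin on histone H4, had 347 on the CD8+ array, against 305 on the CD4+ array by its brighter probe (0.36). By the dimmer probe it had 107 on the CD8+ array, against 209 on the CD4+ array (-0.79, 1.73-fold). The mean over both was -0.21, so no direction can be given for Kmt5c. Kmt5a, which adds the first methyl group on the same lysine, had 1533 on the CD8+ array, against 1319 on the CD4+ array (0.39). A second probe of Kmt5a had 298 on the CD8+ array, against 488 on the CD4+ array (-0.53), the dimmest gave 0.25, and the mean over the probes was 0.037. Kmt5b differed by -0.14 and, by its dimmer probe, by -0.44.

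The methyltransferases of active promoters and enhancers were level. Kmt2b had 2609 on the CD8+ array, against 2789 on the CD4+ array (0.080). Kmt2c was measured by 5 probes, of which the brightest had 4670 on the CD8+ array, against 5198 on the CD4+ array (0.022), and the others gave 0.0018, 0.0048, -0.19 and, at 23.1 and 17.3 the dimmest, 0.59. The 3 Kmt2c probes with differences below 0.03 included both bright ones. Kmt2a, Kmt2d and Kmt2e had no named probe and are not analysed here. The median over the 5 Kmt genes was 0.080 and ran from -0.0034 to 0.22 over the alternatives.

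Ezh2 and Ezh1 are the alternative catalytic subunits of Polycomb repressive complex 2, and Ezh2 is the form of dividing cells. They stood on opposite sides of 0. Ezh2 had 774 on the CD8+ array, against 1137 on the CD4+ array (-0.38, 1 probe). Ezh1 had 240 on the CD8+ array, against 216 on the CD4+ array (0.33, 1.26-fold, 1 probe). Both differences exceeded the SD between probes, and both kept their sign in all alternatives that measured them. At least as far on the same side of 0 were 14.2% of all named genes for Ezh2 and 14.2% for Ezh1. Of the genes of cycling cells 19 of 19 were measured, and their median was -0.48 (-0.17 with brighter probes alone), with 1 past 1.5-fold on the CD8+ side, where 5.5% of all named genes were, and 7 on the CD4+ side, where 8.54% were. The list was split, with 5 genes above 0 and 14 below. Among its mitotic genes Bub1 had 114 on the CD8+ array, against 320 on the CD4+ array (-1.32), Cdk1 -0.87 and Ccna2 -0.80. The 5 above 0 were the replication helicase genes Mcm3 (0.59), Mcm5 (0.34), Mcm7 (0.21), Mcm6 (0.19) and Mcm2 (0.13), named after their values were seen. The cycling list summed to 80883 on the CD8+ and 91281 on the CD4+ array before scaling. No difference means 1.13 times more signal on the CD4+ array there, so the sums were about level once scaled. Bright replication genes gave much of these sums. Pcna had 25445 on the CD8+ and 29252 on the CD4+ array (-0.025), and Mcm6 22153 and 21966. The listed genes other than the Mcm genes and Pcna all lay below 0, from -1.32 to -0.31. The part of the cycling list in the Ezh2 difference was not tested.

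Dnmt1, which copies DNA methylation after replication, had 2163 on the CD8+ array, against 1963 on the CD4+ array (0.32, 1.25-fold, 1 probe), above 0 in all 11 alternatives. As far above 0 were 14.9% of all named genes. Dnmt3a, the de novo enzyme that in mice limits plasticity of T cell subsets, had 226 on the CD8+ array, against 300 on the CD4+ array (-0.23). Its other probes, at 198 against 232 and at 151 against 171, gave -0.053 and -0.0015, so the 3 probes did not separate the cell types beyond their spread. Dnmt3b had 252 on the CD8+ array, against 272 on the CD4+ array (0.066). Dnmt3l, a catalytically inactive cofactor of the germ line, was dim, with 21.0 on the CD8+ array and 21.4 on the CD4+ array (0.15).

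Tet2, which oxidises methylcytosine and restrains T cell memory and expansion in mice, had 129 on the CD8+ array, against 103 on the CD4+ array (0.50, 1.42-fold). Its second probe, near background, had 21.9 on the CD8+ array, against 31.5 on the CD4+ array (-0.35), and the mean over both probes was 0.078. The Tet2 difference thus rested on 1 of its 2 probes. Tet1 and Tet3 had no named probe and are not analysed here.

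The bromodomain proteins, which read acetylated lysines, had the narrowest range among the families with 4 or more genes, from -0.049 to 0.25 with a median of 0.087 (0.030 to 0.23 over the alternatives). Brd9, of a SWI/SNF complex, differed by 0.25 and Brd1, of a histone acetyltransferase complex, by 0.20 and, by its second probe, 0.27. Brd3, a BET reader, differed by 0.052 by its brighter probe, but by -0.58 by the dimmer, at 391 on the CD8+ array against 663 on the CD4+ array, and by -0.27 in the mean over both. Brd8 differed by 0.087, Brd7 by -0.049 (0.34 by its dimmer probe) and Brd8dc by -0.024. Brd2 had no named probe and is not analysed here.

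**Figure D3:**
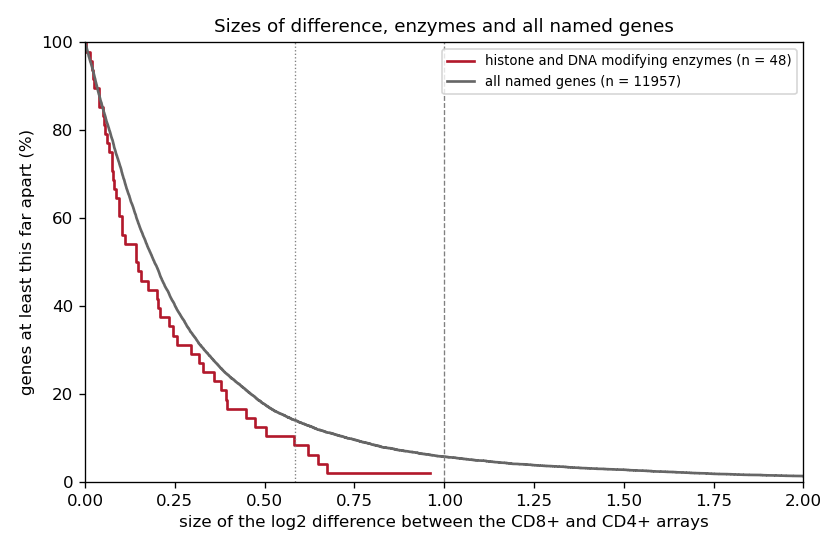
Percentage of genes whose log2 difference between the CD8+ and CD4+ arrays is at least the size on the x axis, for the 48 enzyme genes and for all 11957 named genes above background on both arrays. At 1.5-fold the curves stand at 8.33% and 14.0%, an order that turns round with normexp, the series values or brighter probes alone, and the enzyme curve ends at 0.96, the value of Hdac7; the dotted line marks 1.5-fold and the dashed line 2-fold.

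The probes of 1 gene often differed. Of the 24 enzyme genes with several probes above background on both arrays, the brightest and the dimmest probe had opposite signs in 9 (37.5%), against 27.3% of all 3972 such genes. Differences also depended on brightness. Among all named genes, ranked by mean level and cut into 3 groups of like size, 23.4% were at least 1.5-fold apart in the dimmest group, 13.0% in the middle and 5.77% in the brightest. Of the enzyme genes, 8 lay in the dimmest group, 25 in the middle and 15 in the brightest. None of the 8 was 1.5-fold apart, against Hdac4 and Kdm4b of the 25 and Hdac7 and Hdac10 of the 15, so that in the brightest group the share was 13.3% of the enzyme genes against 5.77% of all named genes.

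**Figure D4:**
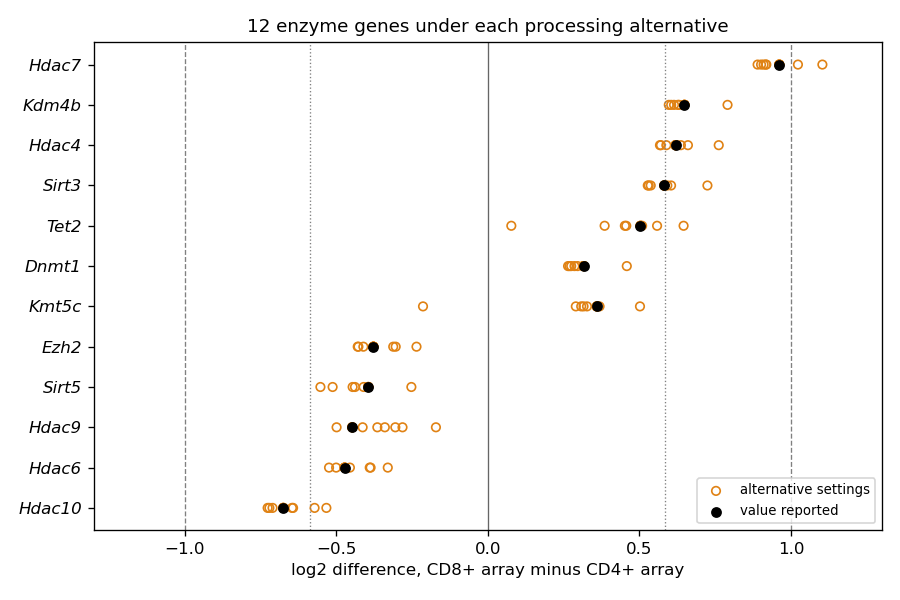
Log2 difference, CD8+ minus CD4+ array, of 12 enzyme genes, as reported (filled) and under each processing alternative (open). Hdac7, Kdm4b, Hdac4 and Sirt3 stay right of 0.5, Hdac10 stays left of -0.5, and averaging their probes takes Kmt5c below 0 and Tet2 to 0.078.

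The partners of these enzymes were taken from 9 lists. Among the subunits of deacetylase co-repressor complexes, 24 of 24 were measured, with 3 past 1.5-fold on the CD8+ side (5.5% of all named genes) and 1 on the CD4+ side (8.54% of all named genes), and a median of 0.095 (0.043 to 0.24 over the alternatives). Mta3, a subunit of the nucleosome remodelling and deacetylase complex NuRD that is also known from B cells, had 6327 on the CD8+ array, against 3219 on the CD4+ array (1.15, 2.22-fold). It was the 1 partner gene past 2-fold in any of the 9 lists, where 5.77% of all named genes were. Mbd2, the methyl-CpG-binding subunit of NuRD, had 2535 on the CD8+ array, against 1827 on the CD4+ array (0.65). Rcor3, a CoREST subunit, had 106 on the CD8+ array, against 222 on the CD4+ array (-0.89, but -0.51 with normexp). Of the 8 B cell markers 7 lay above 0, the side of Mta3, and 1 below, with a median of 0.43. Cd79b had the largest difference among them, with 9159 on the CD8+ array and 5789 on the CD4+ array (0.84). Their part in the Mta3 difference was not tested.

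Histone acetyltransferases, which oppose the deacetylases, had 14 of 14 measured, none at least 1.5-fold apart and a median of -0.012 (-0.077 to 0.13). Kat2a and its close relative Kat2b lay apart, with Kat2a at 419 on the CD8+ array and 323 on the CD4+ array (0.55), and Kat2b at 912 on the CD8+ array and 1448 on the CD4+ array (-0.49). Ncoa3 had 4459 on the CD8+ array, against 7099 on the CD4+ array (-0.49). Past 1.5-fold in some alternatives were Kat2a (up to 0.69) and Ncoa3 (down to -0.62). Polycomb partners of the Ezh enzymes had 21 of 23 measured on both arrays, none 1.5-fold apart and a median of 0.043 (-0.022 to 0.19), the largest differences being those of Pcgf3 (-0.49, 0.015 with normexp), Cbx8 (0.43) and Pcgf6 (0.41). The other lysine methyltransferases, 19 of 25 symbols measured, had a median of 0.013 (-0.038 to 0.16), with Smyd5 at 0.70 past 1.5-fold (but below it, down to 0.47, with normexp and with the series values), followed by Suv39h1 (0.49) and Smyd3 (0.45).

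COMPASS partners, which hold the Kmt2 enzymes, had 11 of 11 measured and a median of -0.0068 (-0.062 to 0.14). One stood out: Men1 (menin), which binds Kmt2 enzymes to chromatin, had 486 on the CD8+ array, against 337 on the CD4+ array (0.70, 1.63-fold). Arginine methyltransferases, 8 of 9 measured, had a median of 0.13 (0.070 to 0.27), and Prmt5, the main symmetric dimethylating enzyme, had 3501 on the CD8+ array, against 2517 on the CD4+ array (0.65). Other JmjC proteins (8 of 11) had a median of 0.10 (-0.0042 to 0.24), methyl-CpG readers and repair genes (14 of 15) -0.097 (-0.15 to 0.045) and SWI/SNF subunits (15 of 18) 0.043 (-0.028 to 0.18), and none of these 3 lists had a member 1.5-fold apart. Gadd45a, a stress-response gene linked to DNA demethylation, came nearest, with 277 on the CD8+ array and 468 on the CD4+ array (-0.58). Over the alternatives Gadd45a reached -0.63 and Jmjd6 0.65, both past 1.5-fold. Over all named genes 14.0% were at least 1.5-fold apart, and the partner lists are described by these counts alone.

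**Figure D5:**
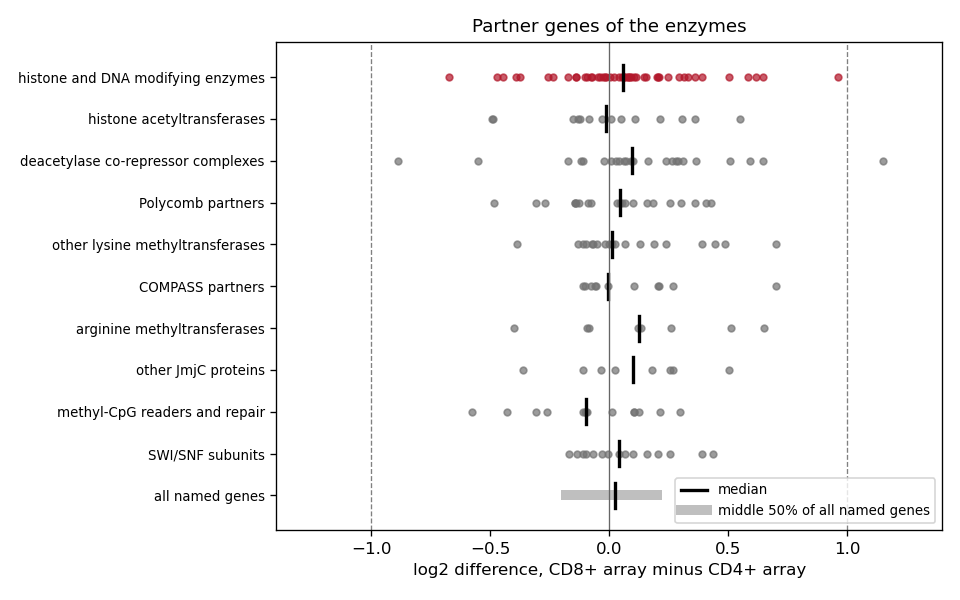
Log2 difference, CD8+ minus CD4+ array, of the enzyme genes (top row) and of the genes in 9 lists of their partners, each point a gene above background on both arrays and each bar the median. Medians lie between -0.097 and 0.13, Mta3 is the point past the dashed 2-fold line on the right, and the grey bar spans the middle 50% of all named genes.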

How the data were processed

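Total RNA of sorted splenocytes was labelled with Cy3 and hybridised to 1 array per cell type, both on 1 slide per the file headers. The deposited intensity is the processed signal of Agilent Feature Extraction 10.1.1.1 per the file headers (the submitters' processing notes name 9.1), background-subtracted and detrended, with no scaling between arrays. The intensity of the authors' series table equals the median spot brightness at 45018 of 45018 spots on each array.

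Control spots and spots marked as outliers (92 on the CD8+ and 99 on the CD4+ array) were left out. From the log2 signal the array's own 75th percentile, taken over spots that are not controls (449.9 on the CD8+ and 508 on the CD4+ array), was subtracted. Of the non-control spots, 58.6% on the CD8+ and 63.1% on the CD4+ array were well above background. A gene took its brightest probe above background on both arrays. Of 41174 probes, 24844 were named through their transcript accession in a RefSeq table of GRCm38.p6. Precision is limited by having 1 array of each cell type, and no test was run. The enzyme genes are named except 1, which is counted but not reported here, and of each partner or marker list at most the 3 largest differences by rule; Ly6c2, Cd79b, Cd8a, Cd4 and Zbtb7b fall under it. The enzyme genes and lists were chosen with earlier results of these data known. Alternatives covered background correction (normexp on the median spot and local background signals, with an offset of 50), scaling, values, filters and probe choice. The offset pulls differences of dim probes towards no difference by design. The software was limma 3.58.1 in R 4.3.3, with pandas 2.3.3 and numpy 2.4.6 in Python 3.11.15, and the computation was tested on simulated data.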

Additional observations from a re-analysis of the deposited data

How the results depend on the processing

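No enzyme gene reached 2-fold in the values reported, and with a 1.5-fold threshold 3 passed on the CD8+ side and 1 on the CD4+ side. With the arrays scaled to their medians, and with the mean over probes, 1 enzyme gene (Hdac7) passed 2-fold on the CD8+ side; the first shifts every difference, and the second brings in its dimmer probe. The median over the enzyme genes ran from 0.0072 (percentile over detected probes) to 0.20 (median scaling). Over all named genes, 232 passed 2-fold on the CD8+ side and 458 on the CD4+ side, and 320 and 366 with median scaling. Normexp gave 122 and 220, the series values 140 and 269, brighter probes alone 102 and 133, and no filter on dim probes 616 and 1277.

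Across 11 alternatives 26 of 48 enzyme genes kept their sign, 19 above and 7 below 0, while 22 changed it in at least 1. Median scaling raises every difference by 0.14 and by itself changed the sign of 11, which lay below 0 as reported. The split of 19 and 7 thus depends on that setting, and the same count over all named genes was not made. Of 515 enzyme values, 7 moved by more than the SD between probes, in Brd3, Hdac9, Kdm4d, Kmt5a, Kmt5c and Tet2. The alternatives for partner and marker lists were added after the data were seen. No paired analysis was possible because each cell type has 1 array. Dim probes limit Dnmt3l, Kdm4d, Hdac9 and Sirt6 most.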
